A study of Mus musculus with 4 samples.

Results

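The cytosolic ribosomal protein genes encode the proteins of the ribosome that translates mRNAs of the cytoplasm. They were taken by gene symbol: Rpl or Rps followed by a digit, together with Rplp0, Rplp1, Rplp2 and Rpsa, leaving out the Rps6k kinases and symbols that contain "-ps". A gene also needed at least 100 reads in at least 1 library. Of the 24421 genes of the count table, 88 had such a symbol and 80 of these reached the minimum. The 80 genes comprised 40 genes of the large subunit, 30 of the small subunit and 3 of the stalk, here called the 73 core genes. The symbols also took in 4 paralogs (Rpl22l1, Rpl36al, Rpl7l1 and Rps27l), 2 genes annotated as transcribed processed pseudogenes (Rps4l and Rpl37rt), and Rps19bp1, which encodes a binding partner of a ribosomal protein and not a ribosomal protein.

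The data were mRNA-seq read counts from whole ICR mouse embryos: 1 library of wild-type (WT) embryos at E7.5, 1 library of WT embryos at E8.5, and 2 libraries of Ddx6 -/- (Ddx6 KO) embryos at E8.5, called KO1 and KO2. Ddx6 encodes a DEAD-box RNA helicase of P-bodies, cytoplasmic granules of mRNAs and of proteins that repress or degrade them. The KO allele lacked a floxed Ddx6 exon that had been removed in the germ line with CAG-Cre, so every cell of the embryo and its membranes carried it. By the study's account the KO libraries were small pools of embryos. KO1 mixed an embryo like those from before head-fold formation with an embryo like those with a head fold. KO2 held only embryos of the earlier form.

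Each ribosome is built from a small subunit, which reads the mRNA, and a large subunit, which joins amino acids, and nearly every ribosomal protein is present in a single copy per ribosome. Cells therefore need the proteins in matched amounts, and their mRNAs are among the most abundant of growing cells. Most of these mRNAs start with a 5′ terminal oligopyrimidine (TOP) tract, a C followed by further C or T bases, through which the growth-regulating kinase mTORC1 and the RNA-binding protein LARP1 control their translation and stability. Early post-implantation embryos grow and divide very fast and make ribosomes at a high rate.

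The libraries held between 8198402 and 12562640 counted reads, and KO1 was the smallest. Ddx6 had 2943 reads at E7.5 WT and 5715 at E8.5 WT, against 706 (KO1) and 929 (KO2), so both KO libraries matched their label. Changes are given as differences in log2 CPM, the reads of a gene scaled to a fixed library total, after trimmed mean of M-values (TMM) scaling, over the 14393 genes with at least 10 reads in 1 library. An interval that covers counting error was computed for each difference, and a change beyond 1 on the log2 scale, the size used in the study's methods, was called large. Each WT stage was a single library, so the difference between KO1 and KO2 was the only measure of spread within a group, and an exact two-sided permutation test of 2 libraries against 1 cannot go below p = 0.333.

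The TOP tract was looked for in RefSeq promoter windows (GRCm38.p6), which held 60 of the 80 genes. A run of at least 6 C or T bases that opened with C, on the gene's own strand and starting within 10 bases of the annotated start, was present in 31 of the 60 (51.7%) and in 21.8% of the 26958 other genes of the same table. The windows below show genes on which later results turn or which have the clearest tracts, from 10 bases before the annotated start to base 15, with the run in capitals from the C nearest to the annotated start.
Rpl15 (chr14:18270972-18270996, minus strand): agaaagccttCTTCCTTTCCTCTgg
Rpl28 (chr7:4792955-4792979, plus strand): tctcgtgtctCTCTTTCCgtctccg
Rpl35 (chr2:39005117-39005141, minus strand): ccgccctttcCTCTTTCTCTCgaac
Rpl35a (chr16:33056472-33056496, plus strand): gcttgccttcCTCTTTCCgccatct
Rpl38 (chr11:114668570-114668594, plus strand): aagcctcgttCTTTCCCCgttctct
Rps6 (chr4:86857353-86857377, minus strand): gaagtcgggcCTCTTTTTCgtgacg
Rps10 (chr17:27635230-27635254, minus strand): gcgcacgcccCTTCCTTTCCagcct
Rps18 (chr17:33955651-33955675, minus strand): cacttccgctCTCTCTTCCacagga
Rpl22l1 (chr3:28805498-28805522, plus strand): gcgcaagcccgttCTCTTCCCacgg
In the first 8 of these genes that C was the first annotated base, and in Rpl22l1 it was base 4. C or T bases stood just before the capitals in each gene, so the marked start shows where counting began and not the edge of the stretch. From the annotated start on, Rpl28 and Rpl35a had the same 8 bases. A window without a run says only that these letters were not near the annotated start, which may differ from the start used in embryos.

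The first comparison asked how much of each library the ribosomal protein genes made up. Of all counted reads they took 5.60% at E7.5 WT and 4.37% at E8.5 WT, and in the KO libraries 3.79% (KO1) and 4.08% (KO2). The share was thus largest in the earlier WT stage and smallest in the KO libraries. At E8.5 WT it was 0.780 of the E7.5 WT share, and the KO shares were 0.867 (KO1) and 0.933 (KO2) of that at E8.5 WT. The KO libraries had a mean of 3.93% ± 0.202 (SD, n = 2), and the E8.5 WT share lay outside their range. KO2 held 1.08 times the share of KO1, a gap close in size to that between KO2 and E8.5 WT. The 95% Clopper-Pearson intervals were narrow, from 3.78% to 3.80% in KO1 and from 4.06% to 4.09% in KO2, and cover counting error only.

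The large and small subunits had the same order of libraries. Large subunit genes took 2.90%, 2.25%, 1.94% and 2.11% of the reads, in the order E7.5 WT, E8.5 WT, KO1, KO2. Small subunit genes took 2.14%, 1.70%, 1.50% and 1.59%. Both subunits therefore held their largest share at E7.5 WT and their smallest in KO1.

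**Figure D1:**
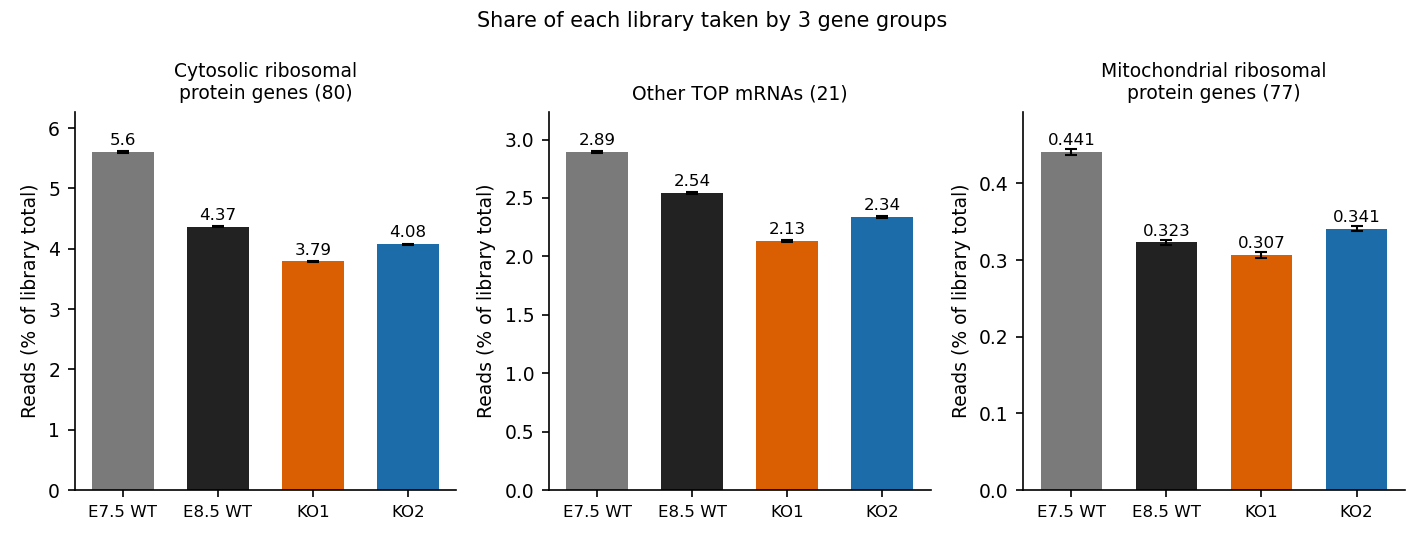
Share of counted reads (y axis, % of library total) in each of the 4 libraries (x axis) for the 80 cytosolic ribosomal protein genes, 21 other TOP mRNAs and 77 mitochondrial ribosomal protein genes; bars are single libraries and error bars are 95% Clopper-Pearson counting intervals. The cytosolic ribosomal protein genes go from 5.60% at E7.5 WT to 4.37% at E8.5 WT and 3.79% and 4.08% in the KO libraries, whereas mitochondrial ribosomal protein genes in KO1 and KO2 lie on either side of E8.5 WT.

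The second comparison asked how the Ddx6 KO embryos differed from WT embryos of the same age. Ribosomal protein mRNAs were slightly lower in the KO libraries. Their median log2 change against E8.5 WT was -0.29 (KO1) and -0.15 (KO2), a mean of -0.22 ± 0.10 (SD, n = 2), beside -0.01 and 0.00 for all genes. Both KO libraries were below E8.5 WT for 72 of the 80 genes, beside 37.6% of all genes tested. Counting intervals lay below 0 in both KO libraries for 63 genes (15.8% of all genes). Of the 80 genes, 77 had at least 1000 reads in 1 library. Among the 3547 other genes with that many reads, 49.7% were below E8.5 WT in both KO libraries and the medians were -0.07 and -0.06. Both counting intervals lay below 0 for 30.6% of these abundant genes. Intervals narrow as reads increase, and read numbers were not matched between these sets, here or in the later interval comparisons.

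The changes were small and even across the group. The middle 50% of the genes lay between -0.39 and -0.16 in KO1 and between -0.20 and -0.09 in KO2. Only Rpl29 passed the log2 threshold of 1 downward in both KO libraries (1.79% of all genes) and none passed it upward (3.44% of all genes). The large subunit genes had medians of -0.30 (KO1) and -0.16 (KO2), with 38 of 40 lower in both. The small subunit genes had medians of -0.30 and -0.13, with 29 of 30 lower in both. All 3 stalk genes were lower in both.

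No gene passed edgeR's test across the 14393 genes. In edgeR's quasi-likelihood test against E8.5 WT, 0 of 14393 genes were called after Benjamini-Hochberg adjustment and 1052 (7.31%) had an unadjusted p under 0.05, and the smallest adjusted p of a ribosomal protein gene was 0.573, for Rpl29. DESeq2 called 31 genes (0.215% of those tested), of which Rpl29 was the only ribosomal protein gene. With the WT stages joined as 1 group, edgeR again called 0 genes and 565 (3.93%) had an unadjusted p under 0.05, while DESeq2 called 32 (0.222%), none of them a ribosomal protein gene. Joining the stages counts the difference between them as spread. The common shift is therefore a description of 2 KO libraries set against 1 WT library.

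**Figure D2:**
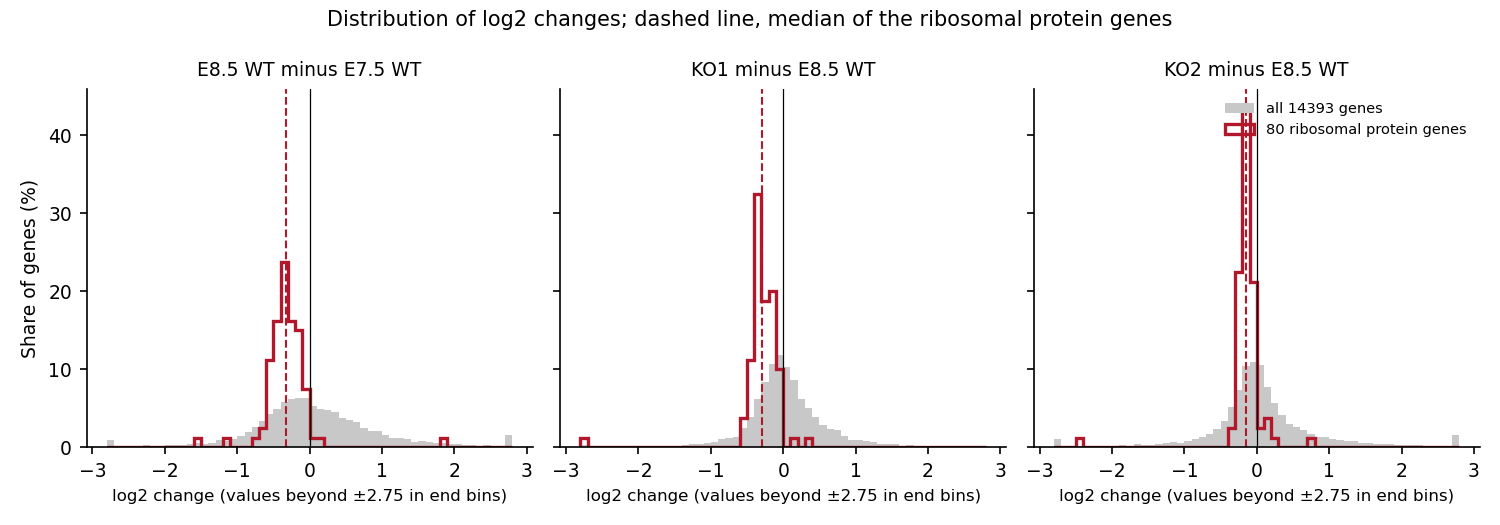
Histograms of the log2 change between libraries (x axis) as a share of genes (y axis, %), for all 14393 genes tested (grey) and the 80 ribosomal protein genes (red outline, dashed line at their median). The red outline is narrow and lies left of 0, with medians of -0.32 for E8.5 WT against E7.5 WT, -0.29 for KO1 and -0.15 for KO2 against E8.5 WT.

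Of the stalk genes, Rplp0, the base that anchors the stalk to the large subunit, had 28372 reads at E7.5 WT, 21164 at E8.5 WT, and 10749 (KO1) and 17899 (KO2) in the KO libraries. After scaling, its log2 change against E8.5 WT was -0.43 (KO1) and -0.23 (KO2). Rplp2, an acidic stalk protein that recruits elongation factors, had 10507, 8080, 4269 and 6856 reads in the same order, with changes of -0.37 and -0.22. Both genes were thus lowest in KO1. Rplp1, the partner of Rplp2 in the stalk, had 19034, 15332, 9766 and 12655 reads and changes of -0.10 and -0.26. It was lowest in KO2, unlike most of the group.

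Several genes lay at the lower end of the common shift. Rpl21, a large subunit protein, had 4144, 3823, 1817 and 3238 reads from E7.5 WT to KO2, and changes against E8.5 WT of -0.52 (KO1) and -0.23 (KO2). Rps19, a small subunit protein mutated in Diamond-Blackfan anaemia, had 4310, 4080, 1951 and 3446 reads and changes of -0.51 and -0.23. Rpl23, at the contact between the subunits, had 7792, 7325, 3597 and 6135 reads and changes of -0.48 and -0.24. In each of the 3 genes the WT stages were near each other and the KO libraries were below both, KO1 the furthest.

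Among the largest counts of the large subunit, Rpl4, which lines the exit tunnel, had 31573 reads at E7.5 WT and 26547 at E8.5 WT, with 15011 in KO1 and 23823 in KO2. Its KO differences were -0.27 and -0.14, near the group medians. Rpl3, which closes around the peptidyl transferase centre, had 17123, 12607, 6575 and 11238 reads and differences of -0.39 and -0.15. Rpl7a had 13044, 11244, 5461 and 9806 reads and differences of -0.49 and -0.19, so KO1 was further from WT than the group median and KO2 close to it. Rpl10a, of a mobile arm opposite the stalk, differed by -0.24 and -0.05, and Rpl41 by -0.24 and -0.19. In all of these genes the scaled levels had the order E7.5 WT, E8.5 WT, KO2, KO1 from high to low.

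In the small subunit, Rps12 had 13031, 12333, 6148 and 10258 reads from E7.5 WT to KO2 and KO differences of -0.45 and -0.25, among the lowest of the subunit. Rps24, another Diamond-Blackfan anaemia gene, had 14903, 10655, 6396 and 9196 reads and differences of -0.19 and -0.20. Rps12 was thus nearly level between the WT stages and lower in the KO libraries, whereas Rps24 differed mainly between the WT stages (-0.53). Rps27a, a fusion of ubiquitin with a small subunit protein, differed from E8.5 WT by -0.28 and -0.09, and Rps25, which many viral internal ribosome entry sites need, by -0.31 and -0.17. Rps23, at the decoding centre, had 5156 and 5318 reads at the WT stages, a scaled difference of 0.00, and KO differences of -0.34 and -0.09.

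Rpl5, Rpl11, Rpl38 and Rps6 also have known roles beyond the ribosome. Rpl5 and Rpl11 form with 5S rRNA the particle that binds MDM2 when ribosome assembly is disturbed. Their changes against E8.5 WT were -0.39 (KO1) and -0.20 (KO2) for Rpl5, and -0.37 and -0.11 for Rpl11. Rpl38, whose loss in mice alters axial patterning, had 2864, 2401, 1269 and 2230 reads from E7.5 WT to KO2, with changes of -0.37 and -0.09. Rps6, the target of S6 kinases downstream of mTORC1, had 6654, 5278, 2899 and 4694 reads, with changes of -0.31 and -0.16. Each of these 4 genes was lower in both KO libraries and nearer to WT in KO2.

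A few genes were near the E8.5 WT level. Rpl19, a long-used reference gene of the large subunit, differed by -0.01 (KO1) and -0.03 (KO2), and Rps15 of the small subunit by -0.04 and -0.02. Rps3a1, the small subunit protein eS1, had 11283, 7959, 6121 and 7658 reads and was above E8.5 WT in KO1 (0.17) and below it in KO2 (-0.04). Rpl10, which sits near the peptidyl transferase centre, differed by -0.13 (KO1) and 0.06 (KO2). The genes that were not below E8.5 WT in both KO libraries were Rpl10, Rpl35a, Rpl36al, Rpl7l1, Rps19bp1, Rps27l, Rps3a1 and Rps4l, of which 5 are paralogs, a retrocopy or the binding protein and 3 are core genes.

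**Figure D3:**
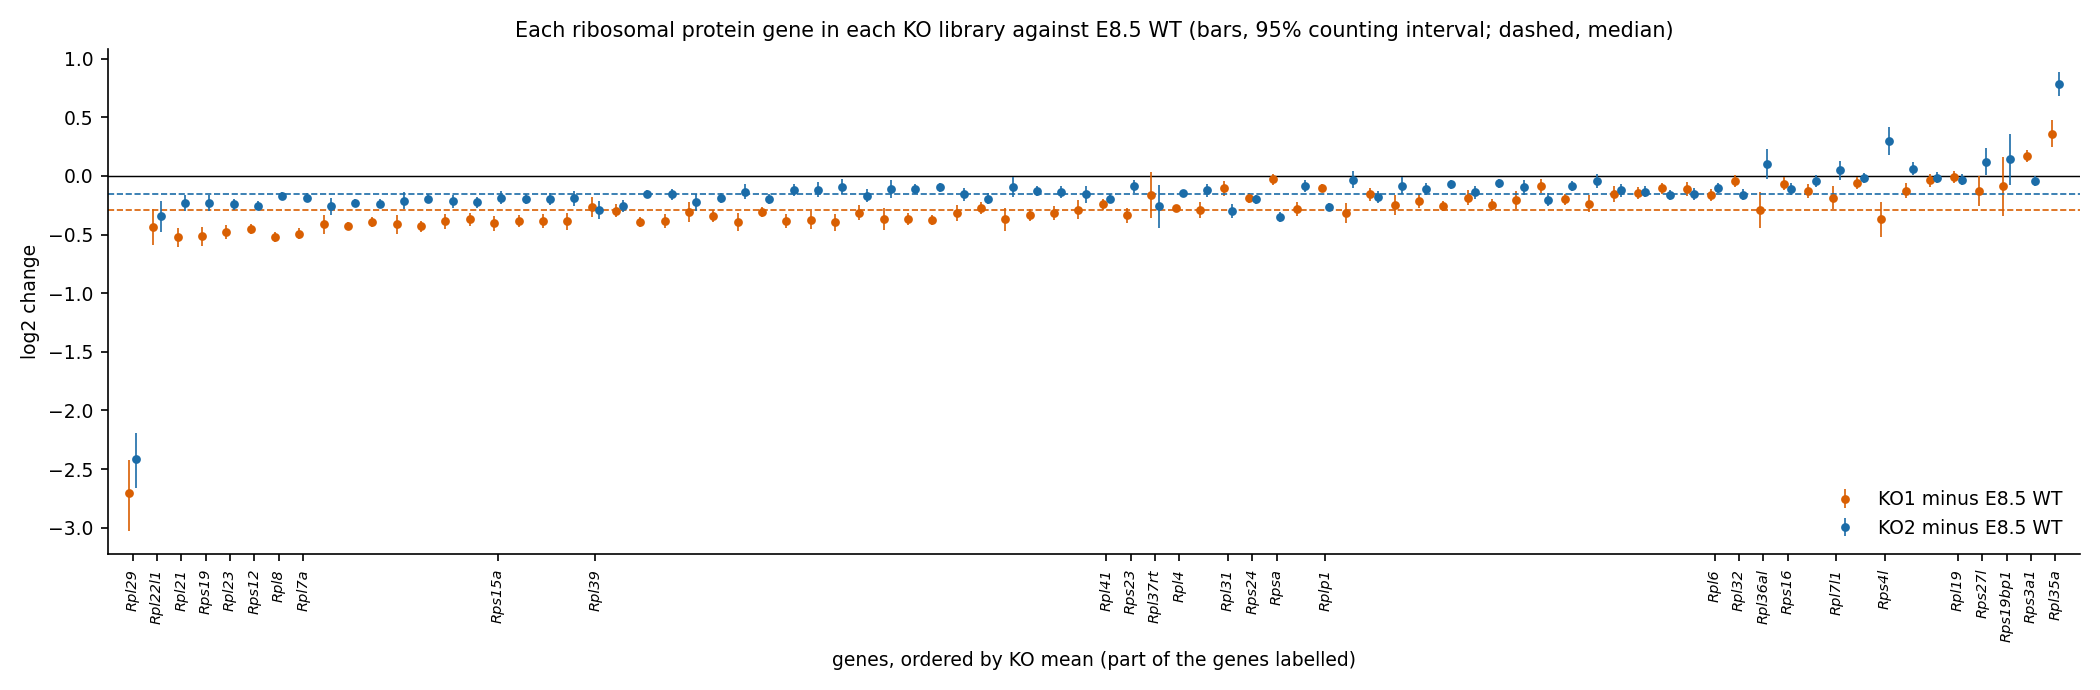
Log2 change of each of the 80 genes (x axis, ordered by the KO mean) relative to E8.5 WT (y axis) for KO1 (orange) and KO2 (blue), with 95% counting intervals; dashed lines mark the medians, -0.29 (KO1) and -0.15 (KO2). Part of the genes are labelled on the x axis, and most genes form a flat band just under 0 with KO1 below KO2, Rpl29 lies far beneath it in both libraries and Rpl35a above it in both.

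Rpl29 and Rpl35a left the common band in opposite directions. Rpl29, a large subunit protein whose loss in mice reduces growth, had 265 reads at E7.5 WT, 975 at E8.5 WT, and 101 (KO1) and 180 (KO2) in the KO libraries. Its level stood out at E8.5 WT alone, and the other 3 libraries were low. Against E8.5 WT it was 6.51-fold lower in KO1 and 5.32-fold lower in KO2, a log2 mean of -2.56 ± 0.21 (SD, n = 2). Against E7.5 WT it differed by -0.88 and -0.59, and between the WT stages by 1.82. Its adjusted p was 0.573 in edgeR's test against E8.5 WT, 0.0235 in the same test with no filter on low counts, and 1.88e-05 in DESeq2. Of the 50-base windows of its transcript, 66.8% also occurred in transcripts of 84 other genes, 81 of them pseudogenes, and the part of such copies in its values was not tested.

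Rpl35a, a large subunit protein also mutated in Diamond-Blackfan anaemia and one of the clear TOP genes shown above, had 3721 reads at E7.5 WT, 1268 at E8.5 WT, and 1113 (KO1) and 2164 (KO2) in the KO libraries. It was lowest at E8.5 WT after scaling and highest at E7.5 WT, with the KO libraries between. Its change against E8.5 WT was 0.36 (KO1) and 0.78 (KO2), and E8.5 WT was -1.60 from E7.5 WT. It was the only gene of the group above E8.5 WT in both KO libraries (36.3% of all genes) and the only one with both KO libraries between the WT stages (26.2% of all genes). edgeR gave it an adjusted p of 0.666 against E8.5 WT, and 54.5% of its 50-base windows occurred in transcripts of 20 other genes.

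The third comparison asked how the group differed between the WT stages. At E8.5 WT, 77 of the 80 genes were lower than at E7.5 WT (50.9% of all genes). For 74 of them the counting interval lay below 0 (33.4% of all genes, 42.8% of the other abundant genes). The median log2 change was -0.32, beside -0.02 for all genes and 0.00 for the other abundant genes. These are single libraries, so the difference has no replicate check. It was larger than the median gap of 0.17 between KO1 and KO2 and than the median shift of either KO library from E8.5 WT.

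Rpl35a and Rps4l passed a log2 of 1 downward between the WT stages (7.82% of all genes) and Rpl29 upward (12.2% of all genes). Next came Rpsa, a small subunit protein that also acts as a laminin receptor, with 15636 reads at E7.5 WT and 9708 at E8.5 WT and a change of -0.73. Rps19bp1 followed at -0.61 and Rpl6 of the large subunit at -0.60, the latter with 13807 and 9386 reads. Rpl39, a very short protein of the exit tunnel, and Rps16 of the small subunit were with Rpl29 the genes that were not lower. Rpl39 had 2889 and 3267 reads at the WT stages and differed by 0.13, and Rps16 had 5948 and 6229 reads and differed by 0.02, or by -0.01 with DESeq2 size factors.

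The fourth comparison set the KO embryos against the earlier WT stage. Both KO libraries were below E7.5 WT for all 80 genes (38.2% of all genes). For 79 of them both counting intervals lay below 0 (23.6% of all genes, 39.4% of the other abundant genes), Rps16 being the exception. The median changes were -0.60 (KO1) and -0.45 (KO2), a mean of -0.52 ± 0.10 (SD, n = 2), beside 0.02 and 0.07 for all genes. A log2 below -1 was reached by Rpl35a, Rpl8 and Rps4l in KO1 (7.45% of all genes) and by Rpsa in KO2 (4.06% of all genes), and by no gene in both (2.70% of all genes).

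Rpl8, a large subunit protein near the peptidyl transferase centre, had 19819 reads at E7.5 WT, 14062 at E8.5 WT, and 6682 (KO1) and 12371 (KO2) in the KO libraries. Its scaled level was lower at E8.5 WT than at E7.5 WT and lower again in KO1. KO1 differed from E7.5 WT by -1.07 on the log2 scale and KO2 by -0.71. Rpsa, with 6507 reads in KO1 and 7543 in KO2, was -0.76 and -1.09 from E7.5 WT. Its KO1 level was near E8.5 WT (-0.03) and its KO2 level lower (-0.35), so it ran against the group, in which KO1 was the lower library.

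The order of the libraries was shared by most genes. E7.5 WT was above E8.5 WT and E8.5 WT above both KO libraries in 69 of the 80 genes, against 12.9% of all genes and 20.1% of the other abundant genes. The KO libraries share the WT libraries they are compared with, so the WT comparisons are not independent of each other. E7.5 WT was the highest of the 4 libraries for 77 genes (33.6% of all genes). Both KO libraries lay between the WT stages for Rpl35a alone, KO1 lay there also for Rps3a1, and KO2 also for Rpl10, Rpl36al, Rpl7l1, Rps19bp1, Rps27l and Rps4l.

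**Figure D4:**
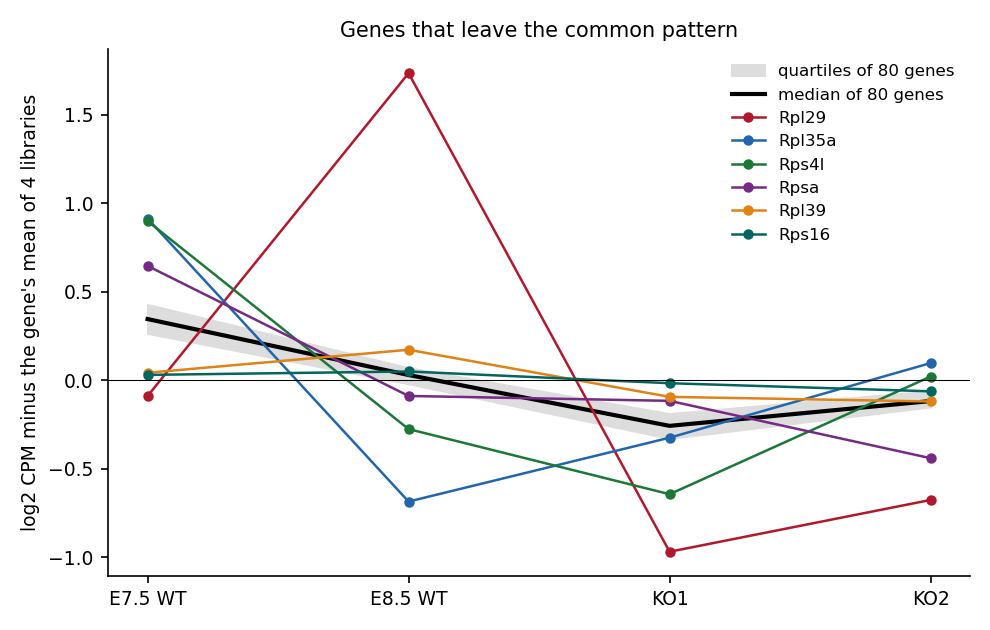
Log2 CPM of 6 genes minus each gene's mean of the 4 libraries (y axis), by library (x axis), with the median (black) and quartiles (grey band) of all 80 genes. The band is highest at E7.5 WT and lowest in KO1, whereas Rpl29 is highest at E8.5 WT, Rpl35a is lowest there, Rpsa is lowest in KO2 and Rps16 varies least.

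The fifth comparison was between the KO libraries, the only replicates. KO2 was above KO1 for 66 of the 80 genes (53.2% of all genes), with a counting interval above 0 for 55 (21.8%) and below 0 for 7 (19.0%). Among the other abundant genes the intervals lay above 0 for 32.1% and below 0 for 24.9%. The median difference was 0.17, and no gene differed by more than 1 on the log2 scale (10.9% of all genes). The median gap was of the same size as the distance of KO2 from E8.5 WT. Genes that were lower in KO2 beyond counting error included Rpl31, Rpl32, Rplp1, Rps3a1 and Rpsa. Rpl31, at the rim of the exit tunnel, had 3280 reads in KO1 and 4163 in KO2, a scaled difference of -0.19.

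Rps4l had the widest gap, with 562 reads in KO1 and 1294 in KO2, a log2 difference of 0.66. Rpl35a followed at 0.42, Rpl36al at 0.39, Rpl8 at 0.35 and Rpl7a, a large subunit protein, at 0.31. Of these 5, Rps4l and Rpl35a were also the genes with the lowest values for E8.5 WT against E7.5 WT, and Rpl29, which was higher at E8.5 WT than at E7.5 WT, differed by 0.29 between the KO libraries. The stage difference and the KO difference use no library in common. Across the 80 genes the Pearson r between them was -0.02, and it was 0.23 across 77 genes without Rpl29, Rpl35a and Rps4l, against -0.55 across all 14393 genes; genes of a library share its depth and scaling and are not independent.

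**Figure D5:**
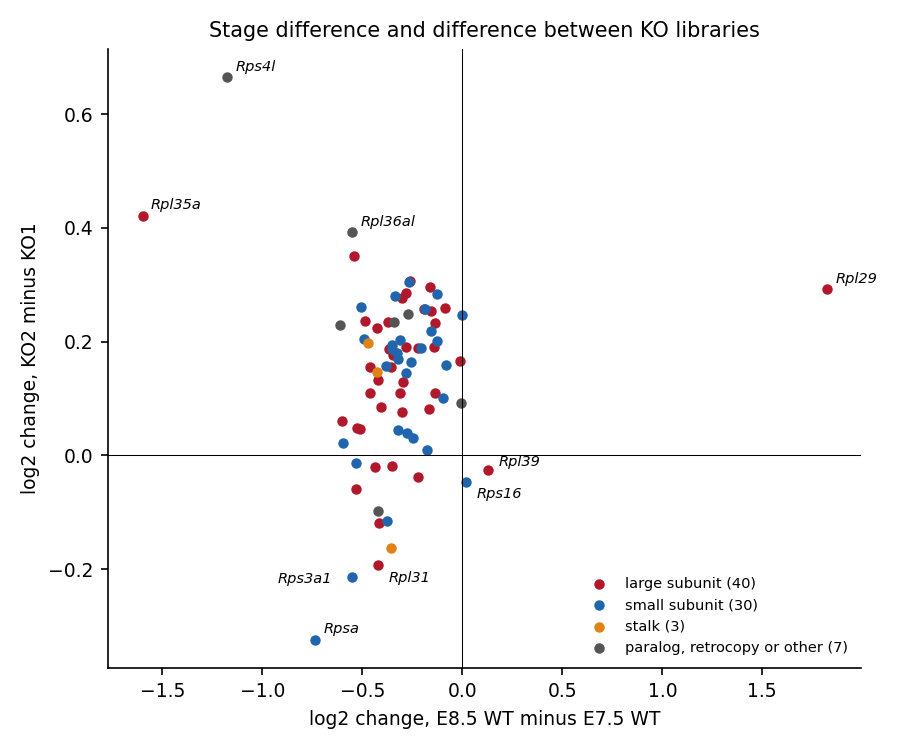
Log2 change from E7.5 WT to E8.5 WT (x axis) against the log2 difference between KO2 and KO1 (y axis) for the 80 genes, coloured by subunit. The cloud sits left of 0 and mostly above 0, with Rpl29 alone at the right (1.82), Rpl35a (-1.60) and Rps4l (-1.18) at the left, and Rpsa (-0.32) at the bottom.

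The 7 members that are not core are the paralogs, the retrocopies and Rps19bp1. All 7 were below E8.5 WT in KO1 (50.9% of all genes) and 2 of them in KO2 (50.1% of all genes). These 2, Rpl22l1 and Rpl37rt, were thus lower in both (37.6% of all genes). The median of the 7 was -0.19 (KO1) and 0.10 (KO2). Rpl22l1, a paralog that can replace Rpl22 in the large subunit, had 1033 reads at E7.5 WT, 1064 at E8.5 WT, and 537 (KO1) and 831 (KO2) in the KO libraries. Its changes of -0.44 and -0.34 gave the lowest mean of the group after Rpl29, with an adjusted p of 0.666 in edgeR's test. Rpl22 itself had 4821, 4937, 2760 and 4494 reads and changes of -0.29 and -0.12. Both genes of the pair had nearly equal levels at the WT stages and were lower in the KO libraries.

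Rps4l, an autosomal copy of the X-linked Rps4x, had 2324 reads at E7.5 WT and 1062 at E8.5 WT. Against E8.5 WT it was -0.37 (KO1) and 0.30 (KO2), so the KO libraries lay on either side. Rps4x had 13832, 11201, 6404 and 10578 reads and changes of -0.26 and -0.07, within the common band. Rps27l, an inducible paralog of Rps27, had 1470, 1256, 786 and 1356 reads and changes of -0.13 and 0.12. Rpl36al, an autosomal copy of Rpl36a, differed by -0.29 and 0.10, and Rpl7l1, a nucleolar relative of Rpl7, by -0.19 and 0.05. Rps19bp1, the binding protein, was -0.09 and 0.14.

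The 8 symbols under the minimum included ubiquitous core genes. Rpl26 had 0 reads in every library, a count that allows up to 3 reads in each. Rpl30 had 12, 7, 2 and 8 reads from E7.5 WT to KO2, Rpl34 had 20, 31, 14 and 20, and Rps27 had 17, 19, 2 and 10. Every cell uses these 4 proteins, and no change is given for them. Of the 50-base windows of their transcripts, 71.3% (Rpl26), 76.4% (Rpl30), 50.6% (Rpl34) and 98.6% (Rps27) also occurred in transcripts of other genes, mostly pseudogenes. Such shares were not particular to these genes. Rpl35 (95.1%) and Rpl5 (93.8%) had 5776 and 9241 reads at E8.5 WT, and Rpl34 lay below the median of 54.1% over the 80 genes. The part of shared sequence in the low counts was not tested. The other 4 symbols were Rpl3l, Rpl10l and Rpl39l, tissue-restricted paralogs, and the retrocopy Rps27rt. Rpl39l, known from male germ cells, had 8, 2, 9 and 55 reads. Just inside the minimum, by the highest count in 1 library, were Rps19bp1 (505), Rpl37rt (729) and Rpl29 (975), and just outside were Rpl39l (55), Rpl34 (31) and Rps27 (19).

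Shared sequence reached well into the counted genes. The median gene had 54.1% of its 50-base windows in common with other annotated transcripts and 46 of the 80 genes had at least 50% in common. Rpl8, with 7.86% in common, differed from E8.5 WT by -0.52 and -0.17. Across the 80 genes the Spearman rho between the share in common and the mean KO change was -0.11, given as a description over genes of the same libraries. Between the share in common and the mean level per length (CPM per kb of annotated exons) the rho was 0.15. Levels of genes with many copies are uncertain, since a read that matches several places may not be counted.

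Levels per length differed widely within the group. In CPM per kb of annotated exons, the median of the 73 core genes was 801 at E7.5 WT, 625 at E8.5 WT, and 531 (KO1) and 573 (KO2) in the KO libraries, beside 8.48 to 9.18 for all genes tested. Rplp1 stood first in every library, with 3207, 2500, 2331 and 2081 CPM per kb from E7.5 WT to KO2. Over the mean of the 4 libraries it was followed by Rpl41 (1971), which encodes a peptide of the large subunit, Rps24 (1752), Rps12 (1572) and Rpl4 (1391). The lower end was set by Rps19bp1 (37.9), Rpl29 (43.8), Rpl7l1 (75.2), Rps15a (84.2) and Rps4l (144). The value of Rps15a rests on an annotated transcript of 5179 bases, the longest of the group, and the places of genes with long annotated transcripts are uncertain.

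Genes with and without a TOP run near the annotated start were compared by their medians. The 31 genes with a run had median changes against E8.5 WT of -0.30 (KO1) and -0.14 (KO2). The 29 genes whose window held none had -0.29 and -0.12. Between the WT stages the medians were -0.31 and -0.30.

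Other mRNAs known to carry TOP tracts were also lower in the KO libraries. The list of 21 held elongation and initiation factors, the poly(A)-binding protein and Fau, a fusion of a ubiquitin-like protein with a ribosomal protein that its symbol does not reveal. Of the 21, 20 were below E8.5 WT in both KO libraries, beside 37.6% of all genes, with medians of -0.38 (KO1) and -0.19 (KO2). Between the WT stages 13 were lower at E8.5 WT, with a median of -0.16, beside 50.9% of all genes. No list gene passed edgeR's test, which called none of the genes.

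Pabpc1, which binds poly(A) tails and stimulates translation, had the lowest mean of these. It had 42215 reads at E7.5 WT, 33534 at E8.5 WT, and 14907 (KO1) and 23433 (KO2) in the KO libraries, and differed from E8.5 WT by -0.62 and -0.50. Eef1g, a subunit of elongation factor 1, was -0.68 and -0.28. Eef2, the translocation factor, was the exception, at -0.26 (KO1) and 0.03 (KO2). Fau was -0.17 and -0.19, inside the range of the 73 core genes.

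Genes that make ribosomes or regulate TOP mRNAs were examined in the same way, beside the 37.6% of all genes and 49.7% of the other abundant genes that were lower in both KO libraries. Of 50 ribosome assembly factors, 34 were below E8.5 WT in both KO libraries, with medians of -0.27 (KO1) and -0.07 (KO2). The nucleolar helicase Ddx21 was lowest at -0.65 and -0.24, and Imp4, of the small subunit processome, was highest at 0.17 and 0.39. Of 15 genes of RNA polymerase I and its factors, which transcribe rRNA, 7 were lower in both, a share near that of the other abundant genes. The medians were -0.30 and 0.02, and Ubtf had the highest mean, at 0.38.

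Of 17 regulators around mTORC1 and Myc, 8 were lower in both KO libraries, again near the 49.7% of the other abundant genes, with medians of -0.09 and -0.03. Larp1, the TOP mRNA binder, differed by -0.03 (KO1) and 0.22 (KO2), and Mtor by -0.06 and -0.02. Myc, a transcription factor known to activate ribosomal protein genes, had 1112 reads at E7.5 WT, 898 at E8.5 WT, and 262 (KO1) and 521 (KO2) in the KO libraries. Its changes were -1.22 and -0.77, the lowest of that list and lower in KO1, as was the ribosomal protein median. The part of Myc in the ribosomal protein values was not tested.

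The 77 mitochondrial ribosomal protein genes, which build the separate ribosome of mitochondria, were set beside the cytosolic ones. Between the WT stages 72 of 77 were lower at E8.5 WT (50.9% of all genes). Against E8.5 WT their medians were -0.16 (KO1) and 0.04 (KO2), and 33 of 77 were lower in both KO libraries (37.6% of all genes). Both KO libraries were below E7.5 WT for 72 of 77 (38.2% of all genes). E7.5 WT was the highest library for 69 (33.6%), and KO2 was above KO1 for 67 (53.2%), as for most cytosolic genes. Against E8.5 WT the cytosolic and mitochondrial medians differed by -0.14 (KO1) and -0.19 (KO2), in the same direction in both libraries. Between the WT stages the medians were -0.32 (cytosolic) and -0.43 (mitochondrial), a difference of 0.11 the other way. These differences were not tested.

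Marker genes of cell types and of developmental state differed between the libraries. Of 6 trophoblast giant cell markers, Prl3b1 had 0 reads in all libraries, and Ctsj and Ctsq had 1 read each, in KO2. The summed reads were 40, 5, 8 and 5989 from E7.5 WT to KO2. Nearly all of the KO2 sum came from Prl3d1 (4156), Prl2c2 (1400) and Prl4a1 (431). The 6 decidua markers, of maternal tissue, summed to 2517, 283, 316 and 2195 reads, and the 6 primitive erythroid markers to 36, 2945, 10 and 8, with Hba-a1 at 0 throughout. Visceral endoderm markers took 0.661%, 0.690%, 0.426% and 0.401% of the reads. Of these 7 markers, 5 were lower at E8.5 WT than at E7.5 WT (50.9% of all genes), and Apob (0.84) and Afp (0.07) were higher. Against E8.5 WT, 6 were lower in both KO libraries (37.6% of all genes), Amn being the exception. Markers of uterine natural killer cells summed to 13, 3, 15 and 120 reads. The 6 markers of the embryo proper summed to 9384, 3831, 2636 and 8082 reads. Of these, the pluripotency factor Pou5f1 had 3790, 693, 867 and 4085 reads, the early mesoderm factor Mesp1 had 570, 52, 52 and 741, and the neural factor Sox1 had 13, 533, 178 and 42. In these 3 genes and in Foxa2 (540, 297, 237 and 555) KO2 was nearer to E7.5 WT than to E8.5 WT in reads. In T (3864, 934, 829 and 1485) and Sox2 (607, 1322, 473 and 1174) KO2 was nearer to E8.5 WT. The part of these cell types and states in the ribosomal protein values was not tested, and in whole embryos a change in the mix of cells and a change per cell cannot be told apart.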

How the data were processed

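Whole embryos of the ICR strain were lysed for RNA and stranded mRNA libraries were made. Per the study's methods and the submitters' processing notes, reads were trimmed (cutadapt 2.8), aligned to mm10 with HISAT2 2.1.0 and counted over exons on the reverse strand with featureCounts 2.0.0, with no option stated for reads that match several places. The deposited values are raw counts per gene, 1 column per library.

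From these counts, log2 CPM were computed with TMM factors and a prior count of 2 (edgeR 4.0.16, R 4.3.3) over genes with at least 10 reads in 1 library. Differences of log2 CPM between libraries were the main values, with 95% counting intervals and a threshold of 1. edgeR's quasi-likelihood test over all 4 libraries, in 3 groups or with the WT stages joined, was adjusted by the Benjamini-Hochberg method over all genes kept, and DESeq2 1.42.0 was the alternative. The scripts were tested on simulated data. The KO libraries came from different pools of embryos, and p-values of the test in 3 groups measure the spread between these libraries. With the WT stages joined, the spread also holds the difference between the stages. Per-length levels and shared windows of 50 bases used GENCODE vM21 transcripts, because no genome was used here, which replaces the genome search that was planned; the shortest annotated principal transcript was taken for each gene.

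The genes and lists were chosen with earlier results of these data known. Genes were named by fixed ranks (the 5 highest and 5 lowest of each comparison and of the level per length, genes past the threshold, those just inside and outside the minimum of reads, and the 3 highest and lowest of each other list) and by special roles or paralogy. Rpl28, Rpl35, Rpl15, Rps10 and Rps18 are printed for their sequence, and Rps15, Fau, Mtor and the genes in counts of 8 or fewer were named after their values were seen. Results of some genes are not reported here.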

Additional observations from a re-analysis of the deposited data

How the results depend on the processing

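Of 253 recomputed summary values, 225 stayed within 1.5 times the reported count or within the spread, 28 moved and 0 were classed as reversed. Values of single genes near 0 did change sign, as for Rps16 between the WT stages and for the means named below. The medians of the genes kept their sign under every scaling, and their distance from the median of all genes was -0.28 (KO1) and -0.15 (KO2) against E8.5 WT with TMM, DESeq2 size factors or plain CPM, although plain CPM put the medians themselves at -0.23 and -0.10. Plain CPM turned the means of Rpl19 (0.04), Rps27l (0.06) and Rps4l (0.02) above 0. The number of genes above E8.5 WT in both KO libraries went from 1 to 5 with plain CPM and to 0 without Rpl29 and Rpl35a, an alternative chosen after seeing the data, and ranged from 2 to 7 in the remaining library when a KO library was left out. Genes past the downward threshold against E8.5 WT went from 1 to 0 with a minimum of 1000 reads or without Rpl29 and Rpl35a. Against E7.5 WT they numbered 31 with a threshold of 0.5, and 1 to 3 with a KO library left out. Between the WT stages, 14 genes passed downward at 0.5, 1 among the core genes and 1 without Rpl29 and Rpl35a, and 0 passed upward with a minimum of 1000 reads or without that pair. KO2 exceeded KO1 for 1 gene at 0.5. Shares over all genes at these altered settings are not given, so the counts describe only how the group's own values moved. The core genes alone took 5.52%, 4.31%, 3.74% and 4.01% of the libraries from E7.5 WT to KO2, and genes with at least 1000 reads took 4.35% at E8.5 WT. Windows of 75 bases gave a median of 47.9% in common.

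Against E8.5 WT, DESeq2 called 31 genes (1 of the ribosomal protein genes) and edgeR with no filter 8 (1), where edgeR with the filter called 0. Against both WT libraries, DESeq2 called 32 genes, and edgeR called 51 without KO1 and 1 without KO2, the lone KO library then being assumed to vary like the WT pair. edgeR's test against E8.5 WT without a KO library was not run, as no residual degree of freedom would remain. No paired analysis was possible because only the KO group carried replicate numbers. Single WT libraries, KO pools that differed in stage within KO1 and between KO1 and KO2, and reads shared with pseudogenes limit every value. The depth of KO1 is the lowest.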
